A study of Rattus norvegicus with 12 samples.

Results

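The patatin-like phospholipase family comprises lipid hydrolases that share a patatin domain, named after a storage protein of the potato tuber, and its members remove fatty acids from triglycerides, phospholipids or lysophospholipids. Of 6 listed symbols, *Pnpla1*, *Pnpla2*, *Pnpla3* and *Pnpla7* had a row among the 17337 genes of the count table, and *Pnpla6* and *Pnpla8* were not analysed here. The family was selected with earlier results of these data known, and was chosen by the fold change of *Pnpla1* in MA24 vs. MA12, so the values of *Pnpla1* are given as a description with no test. The tests below concern the other 3 members.

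Expression was measured by poly-A RNA sequencing of the whole striatum of 12 adult male wild-type Sprague–Dawley rats, 4 per group, each library coming from 1 rat. By the labels, all groups had 16 days of methamphetamine (MA) self-administration. The MA12 rats (numbers 21, 31, 4N and 7N) were killed 12 h after the last session and the MA24 rats (9N, 14N, 15N and 16N) 24 h after it. The third group (9, 11, 12 and 13) is called non-addicted in the labels, which define the term no further and give no abstinence time. No group is labelled saline and none is labelled addicted. The comparisons thus ask how the family differed between the abstinence times, and between the abstinence groups and the rats labelled non-addicted. They do not ask how MA itself acts. Abstinence time and time of day cannot be told apart in MA24 vs. MA12, and the rat number ended in N for all MA24 rats, 2 MA12 rats and no non-addicted rat, without a stated meaning.

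The library totals lay between 17908962 and 23850284 counts. No library repeated another of its group, since the lowest chi-square per degree of freedom between such libraries was 9.72. All 10 markers of striatal projection neurons were detected, with a summed level of 14200 to 18600 CPM (counts scaled to a common library size) over the 12 rats. Levels are CPM scaled by TMM (trimmed mean of M-values), and log2 levels carry a prior count of 2. The lengths of transcripts were not used here, so levels are compared between rats and never between genes. In whole tissue, fewer cells of a type and less RNA per cell cannot be told apart.

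The members act on different lipids. *Pnpla1* is known from the skin, where it joins linoleic acid to ceramides to form the acylceramides of the permeability barrier. *Pnpla2* encodes adipose triglyceride lipase, which takes the first fatty acid from the triglycerides of lipid droplets and is activated by Abhd5 and inhibited by G0s2. *Pnpla3* encodes adiponutrin, a lipid droplet protein best known from the liver. *Pnpla7*, a close relative of neuropathy target esterase (*Pnpla6*), encodes a lysophospholipase of the endoplasmic reticulum that acts on lysophosphatidylcholine.

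*Pnpla1*, the acylceramide enzyme, had the lowest levels in MA24, and its levels differed several-fold between rats of the same group. The MA12 rats 21, 31, 4N and 7N had 124, 327, 281 and 233 counts, or 5.22, 13.7, 13.2 and 13.2 CPM. The MA24 rats 9N, 14N, 15N and 16N had 24, 12, 24 and 81 counts, or 1.03, 0.592, 1.23 and 4.27 CPM. The non-addicted rats 9, 11, 12 and 13 had 84, 91, 118 and 291 counts, or 4.38, 4.49, 4.84 and 15.2 CPM. Rat 21 was the lowest in MA12, with the other 3 close together, and rat 13 the highest in the non-addicted group, again with the other 3 close together. Rat 16N was the highest in MA24, where the other 3 rats ranged from 0.592 to 1.23 CPM.

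The mean level of *Pnpla1* was 3.41 ± 0.67 log2 CPM in MA12, 0.54 ± 1.13 in MA24 and 2.65 ± 0.86 in the non-addicted rats (SD, n = 4 each). The MA24 rats lay below all MA12 rats, with a gap of 0.28 log2 CPM between rats 16N and 21. They also lay below all non-addicted rats, where the gap between rats 16N and 9 was 0.03 log2 CPM and thus smaller than the counting error of either rat. The levels of the MA12 and non-addicted rats overlapped. Groups without overlap were found for 15.6% of all genes tested in MA24 vs. MA12, for 10% in non-addicted vs. MA24 and for 7.1% in non-addicted vs. MA12.

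**Figure D1:**
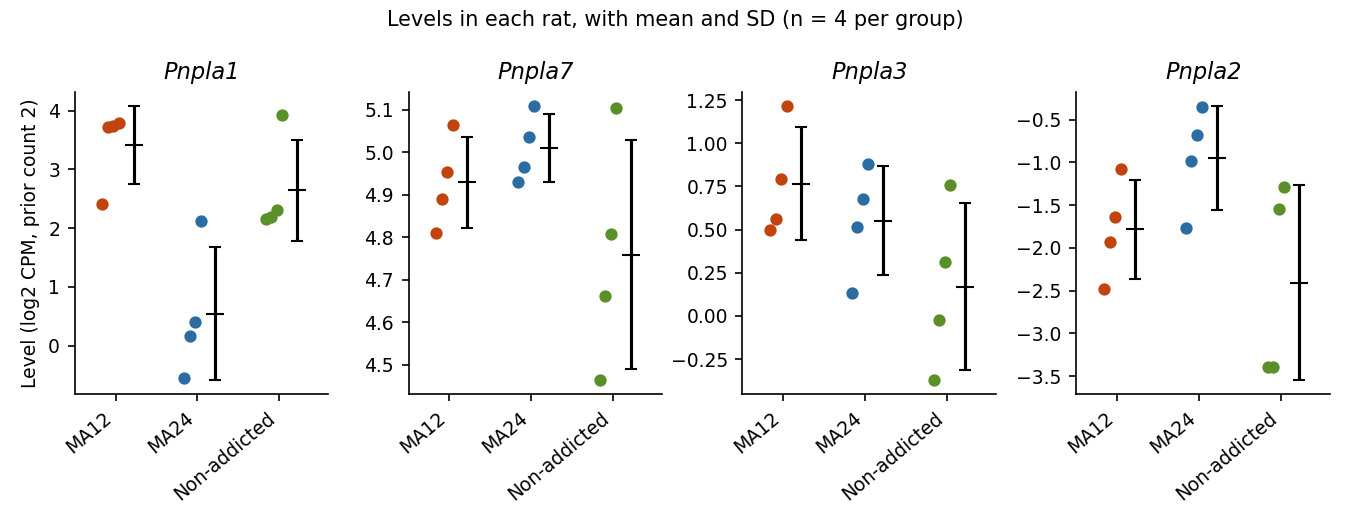
Levels in log2 CPM (vertical axes, prior count 2, a separate scale for each gene) of *Pnpla1*, *Pnpla7*, *Pnpla3* and *Pnpla2* by group; coloured points are single rats, and black bars give the mean and SD of 4 rats. The 4 MA24 rats lie below the MA12 and non-addicted rats for *Pnpla1*, whereas the groups overlap for the other 3 genes.

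When the 12 rats were ordered by their *Pnpla1* level, they could be divided into bands that crossed the groups. The bands were drawn at the widest steps after the levels were seen, and are a description. The highest band held non-addicted rat 13 and the MA12 rats 31, 4N and 7N, at 3.73 to 3.93 log2 CPM. After a step of 1.32 followed MA12 rat 21, the non-addicted rats 12, 11 and 9, and MA24 rat 16N, at 2.13 to 2.41 log2 CPM. After a further step of 1.72 came the MA24 rats 15N, 9N and 14N, at -0.54 to 0.41 log2 CPM, with 9N and 14N 0.715 apart. Within the upper bands, neighbours in the order differed by at most 0.15 log2 CPM, which follows in part from how the bands were drawn.

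**Figure D2:**
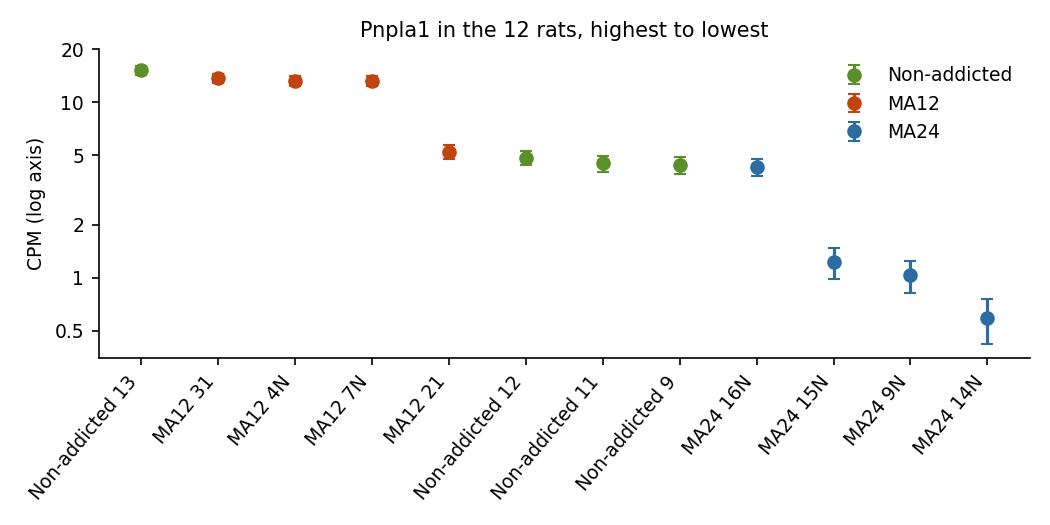
*Pnpla1* in CPM (vertical log axis) in the 12 rats, ordered from the highest to the lowest; colours mark the group and bars the counting error (CPM divided by the square root of the count). The rats were divided into 3 bands at the widest steps, after the levels were seen. The middle band, at 4.27 to 5.22 CPM, holds rats of all 3 groups.

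On the scale of log2 fold change (log2FC), *Pnpla1* was at -2.68 (SE 0.42) in MA24 vs. MA12, a 6.41-fold lower level, and 8 of the 10754 genes tested had a more negative log2FC. In non-addicted vs. MA24, its log2FC was 2.02 (SE 0.49), a 4.05-fold higher level, and 28 of 10744 genes had a larger one. In non-addicted vs. MA12, its log2FC was -0.65 (SE 0.35), with 353 of 10758 genes more negative. The 3 comparisons share groups and are not independent of each other.

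Single rats moved these *Pnpla1* values. Without the MA24 rat 16N, the log2FC was -3.56 in MA24 vs. MA12 and 2.91 in non-addicted vs. MA24. Without the non-addicted rat 13, it was 1.36 in non-addicted vs. MA24 and -1.29 in non-addicted vs. MA12. The sign of each log2FC was the same with any single rat left out. Among the rats numbered with N alone (2 MA12 and 4 MA24), the log2FC in MA24 vs. MA12 was -2.89, and with the kind of number as a covariate it was -2.91. Among the rats numbered without N (4 non-addicted and 2 MA12), the log2FC in non-addicted vs. MA12 was -0.38.

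The spread of *Pnpla1* between rats of one group was large for a gene of its count. Its biological coefficient of variation (the spread between rats beyond counting error, in edgeR) was 0.492, against 0.213 on the trend of all genes at its mean count of 140.8, and exceeded that of 99.2% of 1322 genes with a mean count within 1.5-fold of its own. *Pnpla1* was chosen by its values in these same libraries, so this rank is a description. The coefficient was 0.115 for *Pnpla7* (trend 0.117), 0.281 for *Pnpla3* (trend 0.358) and 0.507 for *Pnpla2* (trend 0.444), which placed them above 64.7%, 16.2% and 39.3% of genes of like count.

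*Pnpla7*, the lysophospholipase, varied least between rats among the members. It also had the highest mean count (628.3), and its spread was near the trend for that count. The MA12 rats 21, 31, 4N and 7N had 734, 669, 709 and 524 counts, the MA24 rats 9N, 14N, 15N and 16N had 760, 616, 670 and 590, and the non-addicted rats 9, 11, 12 and 13 had 422, 695, 615 and 536. The mean level was 4.93 ± 0.11 log2 CPM in MA12, 5.01 ± 0.08 in MA24 and 4.76 ± 0.27 in the non-addicted rats (SD, n = 4 each). The groups overlapped in all 3 comparisons, and the non-addicted rats were the most spread, with a coefficient of variation of 19.1% in CPM against 7.5% in MA12 and 5.57% in MA24.

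The log2FC of *Pnpla7* in MA24 vs. MA12 was 0.08 (95% interval -0.11 to 0.27, edgeR adjusted p = 0.634), taken from the fit without the variance filter because its variance was too low to pass that filter. In non-addicted vs. MA12 it was -0.16 (-0.42 to 0.10, edgeR adjusted p = 0.643), and in non-addicted vs. MA24 -0.24 (-0.50 to 0.03, edgeR adjusted p = 0.326). These intervals lie within 1.5-fold in either direction. Exact permutation tests (two-sided, all 70 ways to split 8 rats evenly, smallest possible p = 0.0286) gave p = 0.257, 0.314 and 0.143.

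*Pnpla3*, the adiponutrin gene, was measured with few counts and did not pass the test in any comparison. The MA12 rats 21, 31, 4N and 7N had 53, 33, 28 and 29 counts, the MA24 rats 9N, 14N, 15N and 16N had 35, 27, 34 and 19, and the non-addicted rats 9, 11, 12 and 13 had 13, 18, 39 and 22. The highest count was in an MA12 rat and the lowest in a non-addicted rat, but all groups overlapped. The mean level was 0.77 ± 0.33 log2 CPM in MA12, 0.55 ± 0.32 in MA24 and 0.17 ± 0.48 in the non-addicted rats (SD, n = 4 each).

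The log2FC of *Pnpla3* was -0.23 in MA24 vs. MA12 (95% interval -0.99 to 0.53, edgeR adjusted p = 0.739), and -0.37 in non-addicted vs. MA24 (-1.22 to 0.48, edgeR adjusted p = 0.647). It was -0.60 in non-addicted vs. MA12 (-1.41 to 0.21, edgeR adjusted p = 0.562). At this depth the intervals leave room for differences of about 2-fold in the first comparison and more in the others. The exact permutation tests gave p = 0.429, 0.257 and 0.114.

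*Pnpla2*, the triglyceride lipase gene, was near the limit of detection. The MA12 rats 21, 31, 4N and 7N had 2, 4, 8 and 4 counts, the MA24 rats 9N, 14N, 15N and 16N had 16, 4, 8 and 10, and the non-addicted rats 9, 11, 12 and 13 had 0, 0, 6 and 6. A count of 0 allows a level of up to 3 counts, or 0.156 CPM in rat 9 and 0.148 CPM in rat 11. The highest counts were in MA24 rats, but all groups overlapped.

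The log2FC of *Pnpla2* in MA24 vs. MA12 was 1.10 (95% interval -0.35 to 2.55, edgeR adjusted p = 0.343), and the MA24 rat had the higher level in 14 of the 16 pairs of rats (exact permutation p = 0.114). In non-addicted vs. MA24 the log2FC was -1.65 (-3.43 to 0.12, edgeR adjusted p = 0.316, exact permutation p = 0.0857), and without the non-addicted rat 13 it was -2.28 (edgeR adjusted p = 0.239). The mean count was too low for the fit in non-addicted vs. MA12, where the exact permutation test gave p = 0.343. These intervals are wide, and the low counts limit what they can show.

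All 12 counts of *Pnpla2* were even numbers, against 6 of 12 for *Pnpla1*, 4 for *Pnpla3* and 8 for *Pnpla7*. Of 13193 genes with a count in at least 8 libraries, 29 (0.22%) had even counts throughout. They included *Cd151* (0 to 18 counts), *Hprt1* (0 to 16), the ribosomal protein gene *Rps6* (26 to 80) and *Erp29* (2220 to 3468), which were singled out after their values were seen. How reads were assigned to these genes was not tested, and the level of *Pnpla2* is uncertain for this reason.

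None of *Pnpla2*, *Pnpla3* and *Pnpla7* was called in any comparison, where a call needed an adjusted p under 0.05 together with a change of 1.5-fold or more. DESeq2 gave no adjusted p for *Pnpla2* in either comparison that fitted it or for *Pnpla3* in MA24 vs. MA12, so it could call none of the 3 genes there, and it did not call those that had one in the other comparisons. It called 3.48%, 0.741% and 1.25% of all genes with an adjusted p in MA24 vs. MA12, non-addicted vs. MA12 and non-addicted vs. MA24. At an unadjusted p below 0.05 their count in edgeR was 0 too, where 23.6%, 12.3% and 17.5% of all genes were found (22.9% in MA24 vs. MA12 without the variance filter). With a rat left out, the count of members at an unadjusted p below 0.05 reached 1 without the non-addicted rat 11 (*Pnpla7*, in both comparisons with the non-addicted rats), and in non-addicted vs. MA24 without the non-addicted rat 13 or the MA24 rat 14N (*Pnpla2*). Over all genes, edgeR called 2.45% in MA24 vs. MA12 (1.54% without the variance filter), 0.251% in non-addicted vs. MA12 and 0.456% in non-addicted vs. MA24. With so low a share called, a count of 0 among 2 or 3 genes does not set the family apart.

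**Figure D3:**
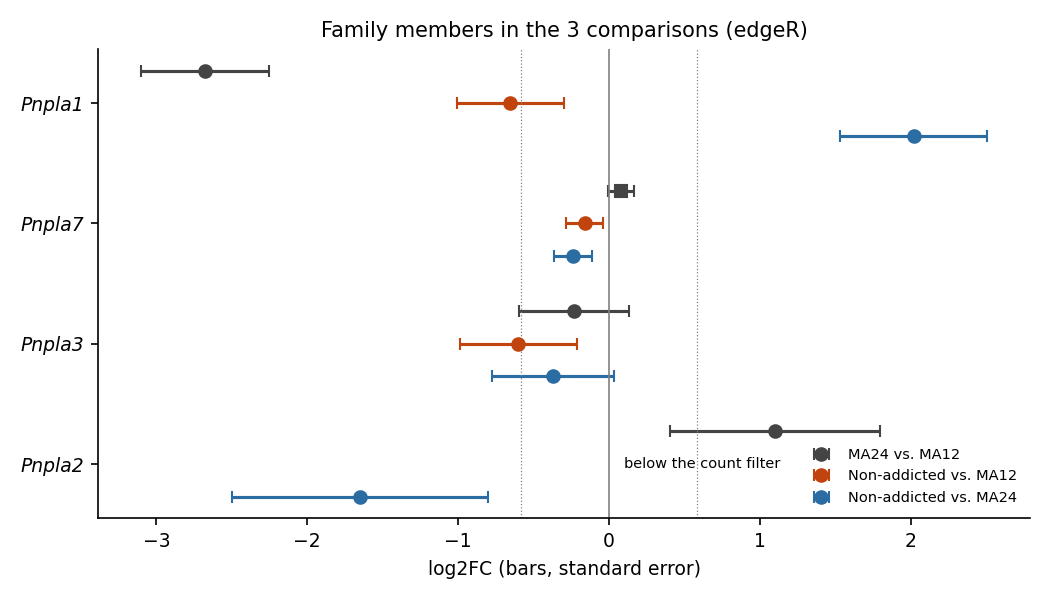
Log2FC (horizontal axis) with its standard error (bars) for each member in the 3 comparisons, marked by colour; the square is the fit without the variance filter and the dotted lines mark a 1.5-fold change in either direction. *Pnpla1* lies at -2.68 in MA24 vs. MA12 and 2.02 in non-addicted vs. MA24, while *Pnpla7* stays within 0.24 of 0; *Pnpla2* was below the count filter in non-addicted vs. MA12.

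Of the partners of the triglyceride lipase, *G0s2* and *Abhd5* were measured with many more counts than the lipase itself. *G0s2*, its inhibitor, had a level of 2.86 ± 0.23 log2 CPM in MA12, 3.30 ± 0.36 in MA24 and 3.40 ± 0.09 in the non-addicted rats (SD, n = 4 each). Its log2FC was 0.47 (SE 0.20, edgeR adjusted p = 0.157) in MA24 vs. MA12 and 0.53 (SE 0.17, edgeR adjusted p = 0.17) in non-addicted vs. MA12, neither of which passed the threshold.

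*Abhd5*, the activator, had a log2FC of -0.23 in both MA24 vs. MA12 (SE 0.16, edgeR adjusted p = 0.408) and non-addicted vs. MA12 (SE 0.15, edgeR adjusted p = 0.562). *Plin5*, a lipid droplet coat protein that binds both the lipase and its activator, had only 5 to 40 counts per rat and log2FCs of -0.89 (SE 0.61, edgeR adjusted p = 0.384) and -0.12 (SE 0.55, edgeR adjusted p = 0.958). In non-addicted vs. MA24 the log2FCs of *G0s2*, *Abhd5* and *Plin5* were 0.06, -0.0049 and 0.77, with edgeR adjusted p of 0.878, 0.989 and 0.48. None of these partners was called in any comparison.

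*Pla2g6*, a calcium-independent phospholipase A2 that also carries a patatin domain, had a log2FC of 0.23 (SE 0.11, edgeR adjusted p = 0.205) in MA24 vs. MA12. *Gpcpd1*, which cleaves the glycerophosphocholine that lysophospholipases such as *Pnpla7* release, had one of 0.14 (SE 0.12, edgeR adjusted p = 0.464). In non-addicted vs. MA12 the values were 0.12 and -0.06, and in non-addicted vs. MA24 -0.11 and -0.20. Neither gene was called.

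Beyond the family, 6 lists of lipid genes were followed, covering lipid droplet lipolysis and storage, lysophospholipid and glycerophosphocholine metabolism, phospholipases A2, cardiolipin, the epidermal acylceramide pathway and transcription factors of lipid metabolism. Of their 111 genes, 97 had a row, and 71, 71 and 78 were tested in MA24 vs. MA12, non-addicted vs. MA12 and non-addicted vs. MA24. In each comparison 0 were called by edgeR. At an unadjusted p below 0.05 there were 17 (23.9%), 7 (9.86%) and 11 (14.1%), against 23.6%, 12.3% and 17.5% of all genes tested. These shares were not tested against the background, from which they differ by a few genes at most. A fit of MA24 vs. MA12 that also took in the N ending of rat numbers left 8 of the 71 lipid genes at that level. It left 1630 of the 10754 genes tested, against 2538 in the main fit.

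The median log2FC over the lipid genes was 0.09 in MA24 vs. MA12, against -0.02 over all genes tested. It was -0.06 against -0.01 in non-addicted vs. MA12, and -0.08 against 0.00 in non-addicted vs. MA24. In the lipolysis and storage list, which surrounds *Pnpla2*, 4 of 12 genes (33.3%) were at an unadjusted p below 0.05 in MA24 vs. MA12. The share over all genes was 23.6%, and the list median was 0.02. All 4 genes were higher in MA24. These were the inhibitor *G0s2*, the hormone-sensitive lipase gene *Lipe* (0.27), and the triglyceride synthesis genes *Dgat1* (0.25) and *Dgat2* (0.25), and none passed after adjustment, with a lowest edgeR adjusted p of 0.0996.

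In the list around *Pnpla7*, lysophospholipid and glycerophosphocholine metabolism, 4 of 21 genes (19.0%) were at an unadjusted p below 0.05 in MA24 vs. MA12. The share over all genes was 23.6%. Of the 4, 3 were higher and 1 lower. The lower one was *Mboat1* (-0.99), a lysophospholipid acyltransferase gene, whose edgeR adjusted p was 0.142. In both comparisons with the non-addicted rats, 3 of 22 (13.6%) were at that level and all 3 were lower in the non-addicted rats. Over all genes the shares were 12.3% in non-addicted vs. MA12 and 17.5% in non-addicted vs. MA24. The medians were 0.07 in MA24 vs. MA12, -0.08 in non-addicted vs. MA12 and -0.15 in non-addicted vs. MA24.

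The epidermal acylceramide list holds the genes that act beside *Pnpla1* in the skin. In MA24 vs. MA12, 2 of 7 tested genes (28.6%) were at an unadjusted p below 0.05, beside 23.6% of all genes. Both were higher in MA24, where *Pnpla1* was lower. These were the fatty acid elongase *Elovl1* (log2FC 0.33, edgeR adjusted p = 0.0761) and the lipoxygenase *Alox12b* (2.34, edgeR adjusted p = 0.0742), the latter at a level between -2.81 and 0.61 log2 CPM and so near the limit of detection. In non-addicted vs. MA24, 5 of 9 were at that level, 4 lower and 1 higher in the non-addicted rats, and the median was -0.26, beside 17.5% of all genes at that level. The 4 lower ones were *Elovl1*, *Alox12b*, *Fa2h* and *Degs2*, and the summed level of oligodendrocyte markers was also lower in the non-addicted rats (12300 to 18200 CPM against 18900 to 22500 CPM in MA24), whose part in this was not tested. *Cers3*, the ceramide synthase that makes the ceramides of the barrier, had too few counts to be tested in any comparison.

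The remaining lists gave small numbers. At an unadjusted p below 0.05, the shares over all genes were 23.6% in MA24 vs. MA12, 12.3% in non-addicted vs. MA12 and 17.5% in non-addicted vs. MA24. For phospholipases A2 outside the family, 1 of 12, 0 of 12 and 1 of 12 genes were at an unadjusted p below 0.05 in MA24 vs. MA12, non-addicted vs. MA12 and non-addicted vs. MA24. For cardiolipin synthesis and remodelling there were 2 of 7, 1 of 5 and 0 of 8, the 2 being the CDP-diacylglycerol synthase genes *Cds1* (-0.45) and *Cds2* (-0.61), both lower in MA24. For the transcription factors there were 4 of 12, 1 of 13 and 1 of 13, and in MA24 vs. MA12 these were *Foxo1* (-0.35), *Foxo3* (-0.62) and *Ppargc1a* (-0.45), lower, and *Nr1h2* (0.28), higher. None passed after adjustment, the lowest edgeR adjusted p being 0.0606 for *Foxo3*.

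*Lpl*, the lipoprotein lipase gene of the lipolysis list, was closest to the threshold in non-addicted vs. MA24, with a log2FC of 0.73 (SE 0.17, edgeR adjusted p = 0.0576). DESeq2 called it there (adjusted p = 0.0068). In non-addicted vs. MA12 its log2FC was 0.60 (SE 0.20, edgeR adjusted p = 0.221).

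**Figure D4:**
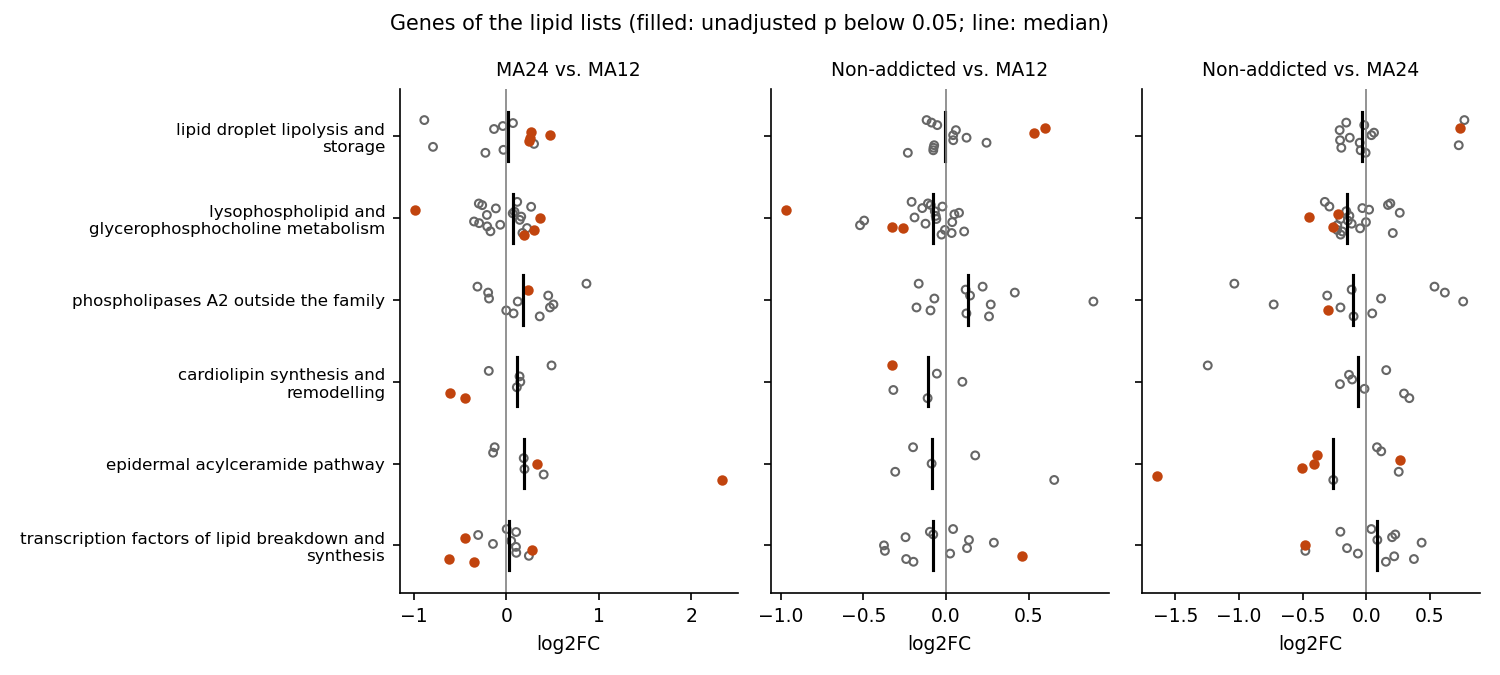
Log2FC (horizontal axes, a separate scale for each panel) of every tested gene of the 6 lipid lists in the 3 comparisons; filled points had an unadjusted p below 0.05 and black lines mark list medians. No point was called after adjustment, and the medians lie between -0.26 and 0.20.

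Markers of other cell types were set beside *Pnpla1*, because it is known from keratinocytes. Of 10 keratinocyte markers, 8 had a row; *Krt15* and *Ivl* were at 0 in all rats, and *Krt5*, *Krt14* and *Dsg3* were at 0.148 CPM or below. The sum came from *Krt1*, *Krt10* and *Sbsn*, and was 17.3 to 23.7 CPM in MA12, 25.5 to 32.9 in MA24 and 20.9 to 27.9 in the non-addicted rats, so it was higher in MA24 than in MA12 but overlapped between MA24 and the non-addicted rats. The sums of the other 12 lists overlapped between MA12 and MA24. Between the non-addicted and MA24 rats, the sums of choroid plexus, endothelial, mural and oligodendrocyte markers did not overlap, and mural markers (95.1 to 124 CPM against 134 to 215 CPM) did not overlap between the non-addicted and MA12 rats. The choroid plexus sum was 8.59 to 27.7 CPM in the non-addicted and 5.80 to 8.23 CPM in the MA24 rats, with *Otx2* at 0 in all rats of both groups and *Prlr* at 0 in all MA24 rats. Of its single genes, only *Folr1* (3.02 to 6.23 against 1.06 to 3.01 CPM) and *Clic6* (1.87 to 4.39 against 0.686 to 1.59 CPM) did not overlap. *Ttr* ranged from 0 to 17.1 CPM within the non-addicted rats, and *Kcne2* and *Kl* reached higher levels in MA24. The endothelial sum (8 of 10 markers) was 362 to 522 CPM in the non-addicted and 577 to 616 CPM in the MA24 rats, the mural sum (9 of 10, with *Col1a2* at 0) was 125 to 155 CPM in MA24, and the oligodendrocyte sum (10 of 10) was 12300 to 18200 CPM against 18900 to 22500 CPM. Their part in the values of the family was not tested.

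The kit did not mark strand, so reads of genes that overlap cannot be told apart. Gene order was taken from the RefSeq annotation of a later rat assembly (GRCr8, used for names and neighbours alone). There *Pnpla1* lies between *Brpf3* and *Bnip5*, and overlaps 2 long non-coding RNA genes, LOC120098863 and LOC120098864. *Brpf3*, a chromatin reader gene, had a log2FC of -0.18 in MA24 vs. MA12 (edgeR adjusted p = 0.387). *Stk38*, a kinase gene nearby that was looked up after its values were seen, went the other way from *Pnpla1* and was called, with a log2FC of 0.60 (SE 0.14, edgeR adjusted p = 0.0202). *Pnpla3* lies beside *Pnpla5*, a family gene outside the listed symbols that had 4 counts in the non-addicted rat 12 and 0 in the other 11 rats. *Pnpla7* overlaps the pseudogene Gstp1-ps3.

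The genes whose levels ran most closely with *Pnpla1* over the 12 rats were sought among 10764 genes with a mean count of at least 50. All values of this kind are descriptions, since the rats share groups and the best of many genes was taken. Among the highest Pearson correlations were 0.952 for *Rnf150*, 0.914 for *Btbd9*, 0.882 for *Stt3b* and 0.870 for *Polg*. The lowest were -0.901 for *Strada*, -0.883 for *Dhx35*, -0.870 for both *Cercam* and *Cep95*, and -0.867 for *Slc19a2*. The level of *Rnf150* was 4.60 ± 0.10 log2 CPM in MA12, 4.11 ± 0.25 in MA24 and 4.55 ± 0.21 in the non-addicted rats (SD, n = 4 each), a much smaller range than that of *Pnpla1*.

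With the group means taken out, which leaves the differences between rats of one group, the correlation with *Rnf150* was 0.888 and that with *Strada* -0.695. Among the highest values were then those of *Cul9* (0.926), *Chpf* (0.921), *Chat* (0.909) and *Slc7a5* (0.903). Of these, *Chat*, the choline acetyltransferase gene of cholinergic neurons, had a correlation of 0.321 before the group means were taken out. *Rnf150* ranked 9 of 10764 on this measure.

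**Figure D5:**
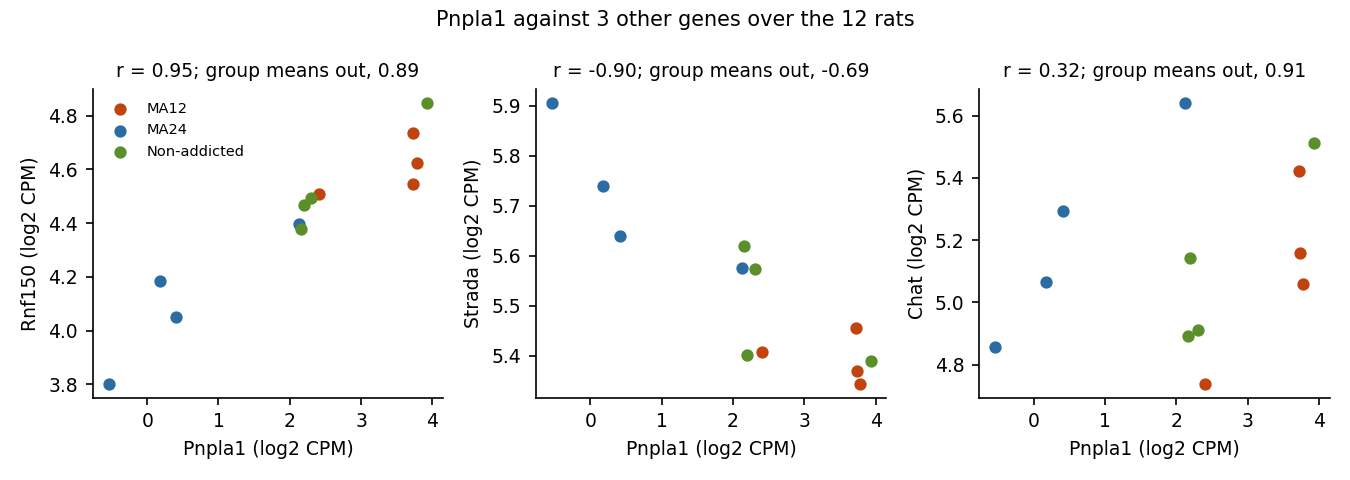
Levels of *Rnf150*, *Strada* and *Chat* (vertical axes, log2 CPM) against *Pnpla1* (horizontal axes, log2 CPM) in the 12 rats, coloured by group; each panel gives Pearson's r and r with the group means taken out. *Rnf150* was higher where *Pnpla1* was higher (0.952, and 0.888 with the group means out), whereas for *Chat* r was 0.321 over all rats and 0.909 with the group means out.

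For the other members, the highest correlations were 0.897 for *Pnpla7* with *Agt*, followed by *Sorbs3* (0.880). *Agt* encodes angiotensinogen, which astrocytes make in the brain. For *Pnpla3* they were 0.841 with *Acvr1*, 0.826 with *Id2* and 0.819 with *Sec24d*. For *Pnpla2*, whose counts are sparse, they were 0.889 with *Itga5* and 0.880 with both *Mgat5b* and *Vwf*. With the group means taken out, *Pnpla7* and *Fam107a* had a correlation of 0.959.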

How the data were processed

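Striatal poly-A RNA of 12 rats was sequenced as paired-end reads with a kit that does not mark strand. Per the submitters' notes, trimming was by Cutadapt 1.18 and alignment to rn6 by STAR 2.7.0e. The values the authors deposited are raw counts per gene, without normalization; featureCounts and HTSeq 0.12.4 are both in the submitters' processing notes, and the handling of strands and multi-mapped reads is not given in the sources used here. Groups were taken from the sample titles.

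Tests on counts used the quasi-likelihood functions glmQLFit and glmQLFTest of edgeR 4.0.16 (R 4.3.3) with TMM factors, 1 fit for each comparison, holding its 8 libraries alone. A gene entered a fit if its count averaged above 4, and then the 15% of genes whose log2 CPM varied least were dropped. A gene was called at a Benjamini-Hochberg adjusted p below 0.05 over all genes tested and a FC of at least 1.5. Members were also compared by exact permutation tests (scipy 1.17.1). Likeness was the Pearson correlation of log2 CPM over the 12 libraries. The fit was tested on simulated data. Alternatives were DESeq2 1.42.0, RLE factors, other filters, a fit of 3 groups, omission of each rat, the kind of rat number, a prior count of 0.5 and Spearman correlations.

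The members, gene lists and markers were chosen with earlier results of these data known. All members were named, with *Abhd5*, *G0s2*, *Plin5*, *Pla2g6*, *Gpcpd1*, called list genes, the 5 highest and 5 lowest correlations with *Pnpla1* and the 3 highest with each other member; some genes that these rankings gave are not reported here. Other list genes, *Stk38*, *Brpf3* and genes ranked with group means taken out were named after their values were seen. Library totals of 17908962 to 23850284 counts set the depth, so genes with counts near 4 carry a large counting error. Intervals cover 95%. No sequence or coordinate is given, and all 6 symbols matched the RefSeq gene table.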

Additional observations from a re-analysis of the deposited data

Results flagged for a closer look

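*Pnpla1* was examined for rats far from the rest of their group, with 8 further genes, in 27 groups of 4. In 2 groups, both of *Pnpla1*, the gap to the nearest rat, as a share of the group's range, passed Dixon's 95% limit, which chance passes in about 5% of groups. Since the family was chosen by the values of *Pnpla1*, these gaps are a description and no test is read from them. The MA12 rat 21 was the lowest of its group in *Pnpla1*, with a gap of 0.96 of the range. The non-addicted rat 13 was the highest of its group in *Pnpla1*, with a gap of 0.92 of the range. Among the marker lists, rat 21 had the lowest sums of striatal projection neuron and astrocyte markers of the 12 rats, and non-addicted rat 13 had neither the highest nor the lowest sum of any list. The MA24 rat 16N, whose *Pnpla1* level did not pass that limit, had the highest sums of striatal projection neuron, microglia, keratinocyte and adipocyte markers. Most of the adipocyte sum (29.9 to 42.6 CPM in MA24) came from *Lipe* (26.1 to 38.2 CPM there), a gene of the lipolysis list. *Adipoq*, *Lep* and *Plin1* were at 0.0564 CPM or below in all rats, and *Retn* and *Pck1* were at 0. The part of the cell types in these levels of *Pnpla1* was not tested.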

How the results depend on the processing

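In all 3 comparisons, 0 of the members with an adjusted p were called under every alternative run. DESeq2 in MA24 vs. MA12 gave no tested member an adjusted p and bears no weight there. The log2FC of each tested member kept its sign wherever it was fitted. No paired analysis was possible because the groups share no rat number. The count of called lipid list genes, 0 in the main comparisons, was 0 to 3 in MA24 vs. MA12, 0 to 1 in non-addicted vs. MA12 and 0 to 1 in non-addicted vs. MA24 when each rat was left out. Without MA24 rat 9N it was 3 (*Alox12b*, *Cds2* and *Foxo3*) and without MA12 rat 7N it was 1 (*Cds2*) in MA24 vs. MA12. In non-addicted vs. MA12 it was 1 without non-addicted rat 13 (*Enpp6*) or MA12 rat 7N (*Lpl*), and 2 among rats numbered without N (*Lpl* and *Klf15*). In non-addicted vs. MA24 it was 1 with DESeq2 and without non-addicted rat 9, or MA24 rat 9N or 14N (*Lpl* each time). The counts over all genes, 264, 27 and 49, lay between 129 and 436, 8 and 93, and 0 and 187 with a rat left out. Under the other alternatives they lay between 47 and 316, 4 and 75, and 0 and 126. The 47, in MA24 vs. MA12, came from the fit that took in the N ending of rat numbers. The rats with N alone gave 116 there. In non-addicted vs. MA24 that ending separates the groups fully, so its part there could not be tested. The mean level of *Pnpla2* in non-addicted rats moved from -2.41 log2 CPM with a prior count of 2 to -3.56 with a prior count of 0.5. Low counts limit *Pnpla2* and *Pnpla3*. The causes were not tested.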
